A study of Mus musculus with 18 samples.

Results

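The 10 genes described here are Atf4 and 9 genes linked to the response that ATF4 directs when amino acids run short or the endoplasmic reticulum is stressed: Ddit3, Trib3, Chac1, Sesn2, Ddit4, Asns, Psat1, Phgdh and Nupr1. They were taken by symbol from a table of 28030 Ensembl mouse genes, each symbol matched 1 identifier, and all 10 were among the 12477 genes that passed the filter on low counts. RNA was measured in hepatocytes of wild-type C57BL/6J male mice aged 12 weeks, kept on normal chow. Cells of the pericentral (PC) or the periportal (PP) side of the liver lobule were obtained by perfusion with digitonin, which permeabilises hepatocytes from the side where it enters and leaves those of the opposite zone for collection. Each zone was sampled in 3 feeding states, which gave 6 groups of 3 libraries.

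All mice were first trained for 3 days to a fast of 16 h overnight and 8 h of feeding by day, and were then given food with 20% sucrose in the drinking water. Tissue of the fed groups was taken after 4 h of feeding, at clock hour 13. For the fasted groups food and sucrose were removed at clock hour 13 and the liver was taken after 8 h, at clock hour 21, or after 24 h, at clock hour 13. The 8 h groups thus differed from the fed ones in time of day too, and fasting and time of day cannot be told apart in them. The 8 h and 24 h comparisons of a zone share the same fed libraries. The labels do not say whether libraries came from separate mice, so the p-values measure only the spread between these libraries, which may be in part technical.

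ATF4 is a basic leucine zipper transcription factor at the centre of the integrated stress response. Kinases that sense amino acid shortage (GCN2), unfolded protein in the endoplasmic reticulum (PERK), low heme (HRI) or double-stranded RNA (PKR) phosphorylate the translation factor eIF2. General translation then slows while the Atf4 message is translated more, so the level of Atf4 RNA is not a measure of ATF4 protein, which was not measured here. ATF4 acts with C/EBP partners on genes for amino acid synthesis, transport and tRNA charging and on regulators of growth. In the liver the response is known from diets that lack an essential amino acid.

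Levels are given as CPM, counts scaled to a common library size with the TMM method, and changes as log2 fold changes with their standard error (SE) from 1 edgeR quasi-likelihood fit of all 18 libraries. A gene was called at a p adjusted by the Benjamini-Hochberg method over the 12477 genes tested of under 0.05. Libraries held 18359900 to 26384400 estimated counts. The zone labels were checked on 4 pericentral markers (Glul, Cyp2e1, Oat and Cyp1a2), whose summed level was 9305 to 18310 CPM in pericentral and 420 to 2044 CPM in periportal libraries, and on 4 periportal markers (Cyp2f2, Hal, Sds and Gls2) at 278 to 1793 against 3134 to 5413 CPM. The periportal markers rose with fasting in pericentral hepatocytes, from 278 to 456 CPM in fed to 806 to 1793 CPM in 24 h libraries. At 24 h 4 of 4 were called higher (10.8% of all genes), and their part in the changes described here was not tested. Pericentral 24 h replicate 2 stood apart with Glul at 111 CPM, while replicates 1 and 3 had 928 and 707 CPM. Markers of other liver cells were low, but in fed mice their sums were higher in every periportal than in every pericentral library. The 6 markers of Kupffer cells and leukocytes summed to 0.651 to 7.17 CPM in pericentral and 1.01 to 25.5 CPM in periportal libraries, the 5 of sinusoidal endothelial cells to 2.63 to 9.29 and 3.43 to 25.8 CPM, and the 6 of stellate cells and fibroblasts to 0.696 to 4.94 and 0.969 to 14.7 CPM. The 5 cholangiocyte markers summed to 19.3 to 37.6 and 32.8 to 56.7 CPM, with Epcam at 0 in every library. In fed libraries the pericentral and periportal sums were 1.45 to 1.87 and 5.98 to 9.11 CPM for Kupffer cells and leukocytes. They were 2.63 to 4.73 and 8.11 to 9.515 CPM for endothelial cells, and 1.07 to 2.26 and 4.13 to 6.245 CPM for stellate cells. Averaged over the states, edgeR called higher on the periportal side 3 of 6 Kupffer and leukocyte and 3 of 4 endothelial markers. It called 0 of 3 stellate and 2 of 3 cholangiocyte markers, beside 10.3% of all genes. The part of these cells in the zone comparisons was not tested. In bulk samples such as these, fewer cells that use a gene and less RNA per cell cannot be told apart.

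ATF4 with a C/EBP partner binds a composite element of the form TGATGNAA, where N is any base. This form was searched on both strands of RefSeq promoter windows of 300 bases (250 before to 50 after each start, build GRCm38.p6). It was present in 4 of the 11 windows of the 10 genes (Psat1 has 2) and in 3.97% of all 32851 windows. The 4 matches are shown because these genes did not move alike in the results that follow. Each is a stretch of 30 bases read 5′ to 3′ on the strand that carries the element, with the matching bases in capitals.
Chac1: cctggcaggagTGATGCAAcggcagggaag
Trib3: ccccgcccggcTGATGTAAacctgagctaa
Asns: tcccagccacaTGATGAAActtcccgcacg
Nupr1: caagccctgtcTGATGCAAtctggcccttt

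The Chac1 stretch is chr2:119351038-119351067 on the minus strand, opposite to the gene, with the match at base -193 counted from the RefSeq start. The Nupr1 stretch is chr7:126625562-126625591 on the plus strand, also opposite to the gene, with the match at base -110. The Asns stretch is chr6:7693214-7693243 on the minus strand, that of the gene, with the match at base -23. The Trib3 stretch is chr2:152344028-152344057 on the plus strand, opposite to the gene, and its match begins at base 15 counted from the RefSeq start. This match lies upstream of the GENCODE gene, which on the minus strand starts at base 152344032 of the chromosome. The windows of Atf4, Ddit3, Ddit4, Sesn2, Phgdh and Psat1 held no match to these letters. A longer part of the promoter is given for Chac1 and Nupr1, which carry the same 8 bases of the element and of which Chac1 changed with fasting. These run from base -250 to base -51 in the direction of the gene (chr2:119350992-119351191, plus strand, and chr7:126625521-126625720, minus strand), so the element reads as its reverse complement in capitals.
Chac1: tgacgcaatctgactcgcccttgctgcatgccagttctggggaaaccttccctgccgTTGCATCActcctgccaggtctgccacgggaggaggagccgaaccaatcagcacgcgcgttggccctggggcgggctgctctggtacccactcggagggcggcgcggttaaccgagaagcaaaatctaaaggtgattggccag
Nupr1: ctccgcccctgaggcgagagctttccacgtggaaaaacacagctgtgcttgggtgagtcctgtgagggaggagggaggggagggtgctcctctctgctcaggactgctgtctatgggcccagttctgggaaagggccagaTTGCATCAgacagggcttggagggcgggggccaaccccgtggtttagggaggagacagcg

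Of the 10 genes, 6 were called in at least 1 comparison with fasting, and not all in the same direction. In pericentral hepatocytes Atf4 and Ddit3 fell while Trib3, Chac1 and Sesn2 rose, at 8 h and again at 24 h, so 5 of the 10 genes were called at each time, 3 higher and 2 lower. In periportal hepatocytes Sesn2 rose at 8 h (1 of 10 called), and Sesn2 and Ddit4 rose at 24 h (2 of 10). Of all genes tested, 13.8% were called at 8 h in pericentral hepatocytes (7.27% higher and 6.57% lower) and 21.8% at 24 h (10.8% higher and 11.1% lower). In periportal hepatocytes 14.4% were called at 8 h (7.56% higher and 6.85% lower) and 19.6% at 24 h (9.59% higher and 10% lower). The median change of the 10 genes was -0.04 and -0.31 in pericentral and 0.28 and 0.02 in periportal hepatocytes, beside medians between -0.002 and 0.015 over all genes. Between 8 h and 24 h, 0 of the 10 genes were called by edgeR in pericentral hepatocytes (9.71% of all genes, 5.2% higher and 4.51% lower), with 1 of the 10 at an unadjusted p under 0.05 and 0 called by DESeq2 and limma-voom. In periportal ones Sesn2 was called (7.46% of all genes, 3.22% higher and 4.24% lower). The change with fasting was also compared between the zones, as the periportal minus the pericentral change. By this test 0 of the 10 genes were called at 8 h, at 24 h or between them by edgeR, DESeq2 or limma-voom, and 2, 2 and 0 of the 10 had an unadjusted p under 0.05. Of all genes, 0.016% were called by edgeR at 24 h, all lower, and 0% in the other comparisons, so a call in 1 zone alone is not shown to differ from the other zone.

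**Figure D1:**
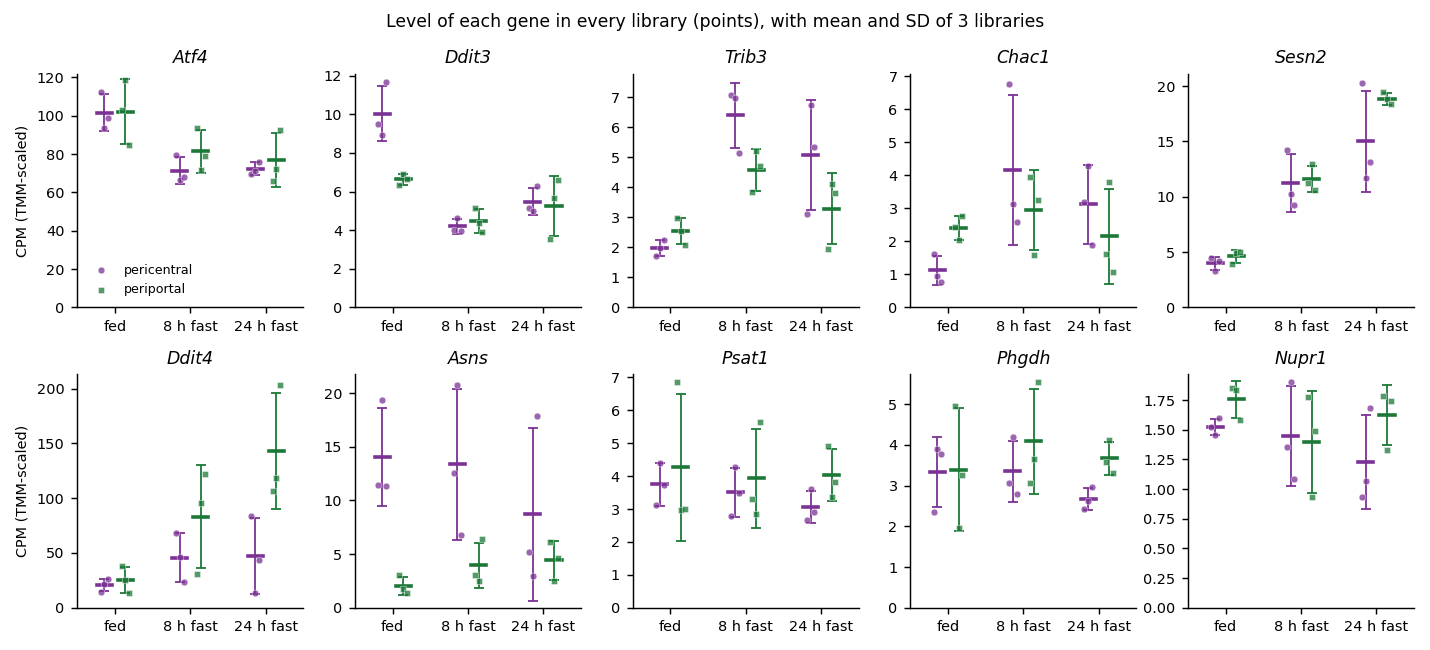
Level of each of the 10 genes in CPM (linear axes from 0) in fed, 8 h and 24 h libraries, with a point per library, the mean as a bar and the SD as an error bar (3 libraries a group). Atf4 and Ddit3 are highest in the fed groups, Sesn2 is lowest there, and Asns is higher in pericentral than in periportal fed libraries.

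Atf4 (ENSMUSG00000042406, chr15:80255184-80257541, plus strand, GRCm38) had 112, 93.7 and 99.0 CPM in the fed pericentral libraries, 79.5, 66.4 and 68.2 CPM after 8 h and 69.7, 71.4 and 76.0 CPM after 24 h. Every fasted pericentral library lay below every fed one. Atf4 fell by 0.51 on the log2 scale at 8 h (SE 0.14, edgeR adjusted p 0.0218) and by 0.49 at 24 h (SE 0.14, edgeR adjusted p 0.0198). Groups without overlap between fasted and fed pericentral libraries were common, at 32.2% of all genes at 8 h and 38.7% at 24 h. In periportal libraries Atf4 had 103, 118.5 and 84.6 CPM when fed, 93.5, 71.7 and 78.8 CPM after 8 h and 65.8, 72.4 and 92.4 CPM after 24 h. These groups overlapped, and neither -0.33 at 8 h (SE 0.14, edgeR adjusted p 0.138) nor -0.41 at 24 h (SE 0.14, edgeR adjusted p 0.0518) was called. The change did not differ between the zones beyond its error, with a zone difference (periportal change minus pericentral change) of 0.18 at 8 h (95% interval -0.24 to 0.60) and 0.08 at 24 h (-0.34 to 0.50). The pericentral call at 8 h was lost without fed replicate 1 (-0.42) or 8 h replicates 2 (-0.45) and 3 (-0.47), and that at 24 h without fed replicate 1 (-0.42) or 24 h replicates 1 (-0.47) and 2 (-0.48). The periportal value at 24 h was called by DESeq2 (-0.40), with a filter at a mean of 1 CPM (-0.41), and without any of 4 libraries: periportal fed replicate 3 (-0.53), pericentral 8 h replicate 1 (-0.41), periportal 8 h replicate 1 (-0.41) and periportal 24 h replicate 3 (-0.56).

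Ddit3 (ENSMUSG00000025408, chr10:127290774-127296288, plus strand) encodes CHOP, a bZIP partner of C/EBP proteins that is induced in prolonged stress. Pericentral libraries had 9.51, 8.94 and 11.7 CPM when fed, 4.02, 4.65 and 3.95 CPM after 8 h and 5.16, 5.00 and 6.28 CPM after 24 h. The fed libraries stood above all the fasted ones (32.2% and 38.7% of all genes did not overlap at 8 h and 24 h). The 24 h libraries stood above the 8 h ones (28.9% of all genes did not overlap between these times). The gene fell by 1.26 at 8 h (SE 0.19, edgeR adjusted p 0.000312) and by 0.88 at 24 h (SE 0.19, edgeR adjusted p 0.00331), and both calls held under all 26 alternatives. Periportal libraries had 6.36, 6.91 and 6.65 CPM when fed, 5.13, 4.36 and 3.91 CPM after 8 h and 3.52, 5.65 and 6.58 CPM after 24 h. The 8 h libraries lay below the fed ones (31.6% of all genes did not overlap), while 1 of the 24 h libraries was within the fed range. Neither change was called (8 h: -0.57, SE 0.19, edgeR adjusted p 0.0579, and 24 h: -0.33, SE 0.19, edgeR adjusted p 0.254). The 8 h value was called by DESeq2, with a filter at a mean of 1 CPM, and without periportal 24 h replicates 1 (-0.57) or 3 (-0.57). Fed pericentral libraries lay above fed periportal ones, and 28.3% of all genes did not overlap between the fed zones. The zone difference in level was -0.60 (SE 0.19, edgeR adjusted p 0.0616) and was not called. It was called when only these groups were fitted, by DESeq2, by limma-voom, and without periportal 24 h replicate 1 (-0.60) or 3 (-0.60). An exon of Mars on the opposite strand shares 68 bases with the exons of Ddit3 (4.0% of them), and reads there cannot be assigned where strand is not used.

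**Figure D2:**
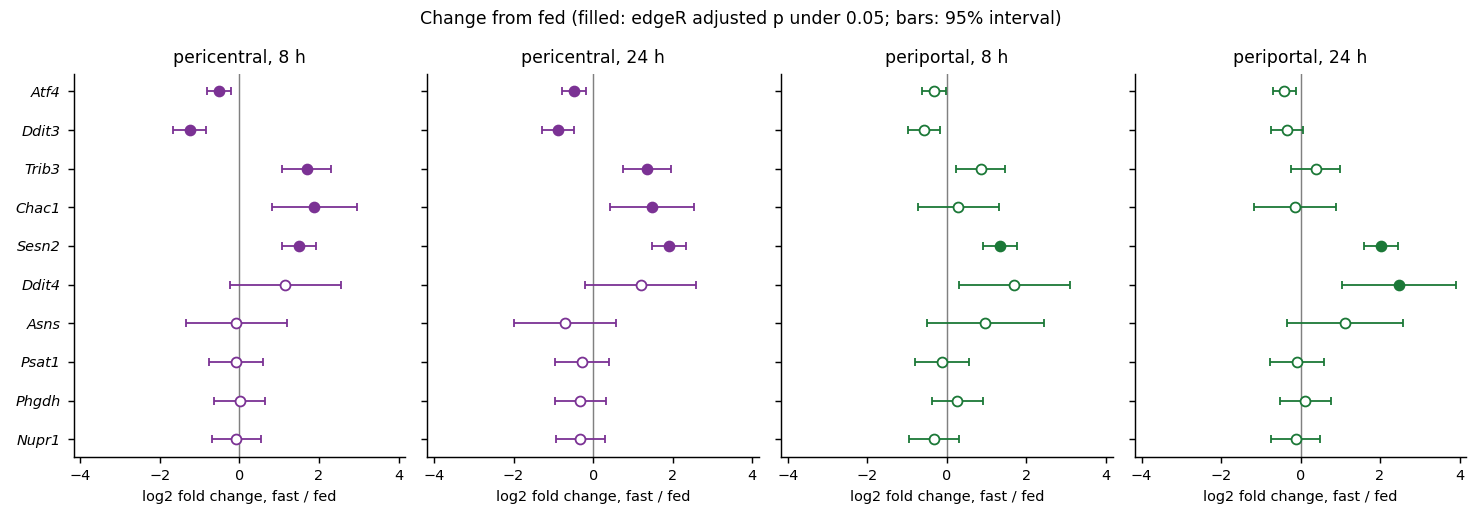
Log2 fold change from fed for each of the 10 genes in pericentral and periportal hepatocytes at 8 h and 24 h, with 95% intervals as bars, and filled points where the edgeR adjusted p was under 0.05. Atf4 and Ddit3 lie left of 0 in all 4 panels and Sesn2 right of 0 in all 4, where it is filled each time.

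Trib3 and Chac1 are classical targets of ATF4 and CHOP, and in pericentral hepatocytes they rose where Atf4 and Ddit3 fell. Trib3 (ENSMUSG00000032715, chr2:152337422-152344032, minus strand) encodes a pseudokinase that binds AKT and damps insulin signalling. Pericentral libraries had 1.73, 1.97 and 2.26 CPM when fed, 7.09, 6.98 and 5.14 CPM after 8 h and 3.13, 6.77 and 5.34 CPM after 24 h. The highest 24 h value was that of replicate 2, the library with low Glul. No fasted library reached down to the fed range (32.2% and 38.7% of all genes did not overlap at 8 h and 24 h). Trib3 rose by 1.69 at 8 h (SE 0.29, edgeR adjusted p 0.000865) and by 1.35 at 24 h (SE 0.29, edgeR adjusted p 0.00322), and both calls held under all 26 alternatives. Periportal libraries had 2.97, 2.56 and 2.09 CPM when fed, 3.84, 5.20 and 4.71 CPM after 8 h and 1.96, 4.12 and 3.82 CPM after 24 h. At 8 h all 3 were above the fed libraries (31.6% of all genes did not overlap), and at 24 h the groups overlapped. Neither 0.85 at 8 h (SE 0.29, edgeR adjusted p 0.058) nor 0.39 at 24 h (SE 0.29, edgeR adjusted p 0.396) was called. The 8 h value was called when only these groups were fitted, by DESeq2, and without pericentral 24 h replicates 1 (0.85) or 2 (0.85) or periportal 24 h replicate 1 (0.85). The zone difference in change was -0.84 at 8 h (95% interval -1.70 to 0.02) and -0.97 at 24 h (-1.84 to -0.10), and it was not called (edgeR adjusted p 0.909 and 0.599).

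Chac1 (ENSMUSG00000027313, chr2:119351229-119354381, plus strand) encodes an enzyme that breaks down glutathione. It was measured from 20 to 165 estimated counts per library. Pericentral libraries had 1.63, 0.945 and 0.779 CPM when fed, 6.76, 3.12 and 2.59 CPM after 8 h and 3.20, 4.27 and 1.88 CPM after 24 h. Here too 24 h replicate 2, the library with low Glul, was the highest of its group. All fasted libraries were above the fed ones (32.2% and 38.7% of all genes did not overlap at 8 h and 24 h). Of these, 8 h replicate 1 was far above the rest. The rise was 1.88 at 8 h (SE 0.50, edgeR adjusted p 0.0184) and 1.48 after 24 h (SE 0.50, edgeR adjusted p 0.0448). Periportal libraries had 2.44, 2.04 and 2.76 CPM when fed, 3.96, 1.60 and 3.26 CPM after 8 h and 1.62, 3.78 and 1.06 CPM after 24 h. They overlapped at every state, with changes of 0.29 (95% interval -0.73 to 1.30 at 8 h) and -0.15 (-1.18 to 0.88 at 24 h).

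The fed periportal libraries of Chac1 all lay above the fed pericentral ones, by 1.10 (SE 0.50, edgeR adjusted p 0.221, not called). Between the fed zones 28.3% of all genes did not overlap. The zone difference in the change of Chac1 was -1.60 at 8 h (95% interval -3.06 to -0.14) and -1.63 at 24 h (-3.10 to -0.15), which was not called over all genes (edgeR adjusted p 0.909 and 0.60). The pericentral call at 8 h was lost without pericentral fed replicates 2 (1.79) or 3 (1.68) or 8 h replicate 1 (1.34). The call at 24 h was lost under limma-voom (1.49), with no filter (1.47), and without any of 10 libraries: pericentral fed replicates 2 (1.36) and 3 (1.27), periportal fed replicates 1 (1.48), 2 (1.47) and 3 (1.47), periportal 24 h replicate 1 (1.48), pericentral 24 h replicates 1 (1.45) and 2 (1.18), periportal 8 h replicate 3 (1.48), and pericentral 8 h replicate 2 (1.47).

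Sesn2 and Ddit4 both restrain mTORC1, the kinase complex that couples amino acid supply to growth. Sesn2 (ENSMUSG00000028893, chr4:132492032-132510501, minus strand) encodes sestrin 2, which binds leucine and restrains mTORC1 when leucine is scarce. It was the 1 gene of the 10 called higher in both zones at both times. The estimates of Trib3 and Ddit4 were also positive in all of these comparisons, but not all were called. Pericentral libraries had 4.42, 3.31 and 4.21 CPM when fed, 14.2, 10.2 and 9.24 CPM after 8 h and 20.2, 11.7 and 13.1 CPM after 24 h. Periportal libraries had 3.92, 4.91 and 5.00 CPM when fed, 11.3, 12.9 and 10.6 CPM after 8 h and 19.5, 18.8 and 18.4 CPM after 24 h. In both zones every fasted library was above every fed one, and the periportal 24 h libraries were also above the 8 h ones. Periportal groups did not overlap for 31.6% (8 h, fed), 36.9% (24 h, fed) and 25.4% (24 h, 8 h) of all genes. Pericentral groups did not overlap for 32.2% (8 h, fed) and 38.7% (24 h, fed). In pericentral hepatocytes Sesn2 rose by 1.49 at 8 h (SE 0.21, edgeR adjusted p 0.000131) and 1.91 after 24 h (SE 0.21, edgeR adjusted p 1.15e-05). In periportal ones the rise came to 1.33 after 8 h (SE 0.20, edgeR adjusted p 0.000395) and to 2.03 after 24 h (SE 0.20, edgeR adjusted p 7.94e-06). These 4 calls held under all 26 alternatives, and the zone differences in change were -0.17 (95% interval -0.77 to 0.44) and 0.12 (-0.49 to 0.72). From 8 h to 24 h periportal Sesn2 rose by 0.70 (SE 0.19, edgeR adjusted p 0.037), against 0.42 in pericentral hepatocytes (SE 0.19, edgeR adjusted p 0.191). The periportal call was lost without any of 7 libraries: fed replicate 2 (0.69), 8 h replicates 1 (0.67), 2 (0.79) and 3 (0.64), and 24 h replicates 1 (0.68), 2 (0.70) and 3 (0.72).

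Ddit4 (ENSMUSG00000020108, chr10:59949669-59951834, minus strand) encodes REDD1, which acts on mTORC1 through the TSC complex and is also a known target of the glucocorticoid receptor. Pericentral libraries had 14.7, 21.4 and 25.9 CPM when fed, 68.3, 46.0 and 23.3 CPM after 8 h and 83.8, 13.8 and 44.0 CPM after 24 h. The pericentral groups overlapped, and 24 h replicate 2, the library with low Glul, was below all the fed ones. The changes of 1.15 (SE 0.65, edgeR adjusted p 0.285) and 1.19 (SE 0.65, edgeR adjusted p 0.215) were not called. Periportal libraries had 37.8, 25.1 and 13.6 CPM when fed, 31.1, 95.5 and 122 CPM after 8 h and 107, 118 and 203 CPM after 24 h. The 24 h libraries were all above the fed ones (36.9% of all genes did not overlap), whereas at 8 h replicate 1 was within the fed range. Ddit4 rose by 2.49 at 24 h (SE 0.66, edgeR adjusted p 0.0186), a 5.60-fold change. The value at 8 h was 1.70 (SE 0.65, edgeR adjusted p 0.103, called by DESeq2 at 1.71). The 24 h call was lost without periportal fed replicates 2 (2.47) or 3 (2.18) or 24 h replicate 3 (2.14). At 24 h all periportal libraries were above the pericentral ones, by 1.60 (SE 0.64, edgeR adjusted p 0.217, not called). Between these zones 22.1% of all genes did not overlap. The zone difference in change was 1.29 (95% interval -0.65 to 3.24). Averaged over the states, Ddit4 differed between zones by 0.92 (SE 0.37, edgeR adjusted p 0.10), which was called without pericentral 24 h replicate 1 (1.15).

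The remaining 4 genes were not called with fasting by edgeR in either zone. Asns (ENSMUSG00000029752, chr6:7675169-7693254, minus strand) encodes asparagine synthetase, which makes asparagine from aspartate with glutamine as the donor of nitrogen. It was the 1 gene of the 10 called between zones in the edgeR fit of all 18 libraries. In fed mice 1 of the 10 genes was called between zones (8.01% of all genes, 3.89% higher and 4.13% lower on the periportal side). After 8 h and 24 h 0 of 10 were called by edgeR, DESeq2 and limma-voom, with 1 and 2 of the 10 at an unadjusted p under 0.05. Of all genes edgeR called 7.14% at 8 h (3.72% higher and 3.42% lower) and 4.17% at 24 h (1.7% higher and 2.47% lower). Averaged over the states 1 of 10 was called (20.3% of all genes, 10.3% higher and 9.96% lower). Asns had 11.5, 19.3 and 11.3 CPM in pericentral and 3.01, 1.72 and 1.36 CPM in periportal fed libraries. At 8 h it had 12.5, 20.7 and 6.81 CPM against 3.07, 2.49 and 6.38 CPM, and at 24 h 5.24, 2.98 and 17.9 CPM against 6.15, 2.49 and 4.60 CPM. The zones did not overlap in fed and 8 h mice, as was so for 28.3% and 23.9% of all genes, and they overlapped at 24 h, when 22.1% of all genes did not. The difference of periportal from pericentral level was -2.79 in fed mice (SE 0.66, edgeR adjusted p 0.0182), a level 0.144 times as high. It was -1.75 after 8 h (SE 0.63, edgeR adjusted p 0.12) and -0.98 after 24 h (SE 0.63, edgeR adjusted p 0.481), and neither was called. Averaged over the states it was -1.84 (SE 0.37, edgeR adjusted p 0.00273), and this call held under all 26 alternatives.

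The fed zone call of Asns was lost without pericentral fed replicate 2 (-2.50) or periportal fed replicates 2 (-2.70) or 3 (-2.58), and the 8 h value was called without pericentral 24 h replicate 3 (-1.75). Changes of Asns with fasting were -0.08 and -0.71 in pericentral hepatocytes (95% intervals -1.34 to 1.19 and -1.99 to 0.58) and 0.97 and 1.11 in periportal ones (-0.49 to 2.43 and -0.35 to 2.57). Pericentral 24 h replicate 3 was the highest of its group, and without that library Asns fell by 1.78 (edgeR adjusted p 0.0446). In pericentral 24 h replicate 2, the library with low Glul, Asns was at 2.98 CPM. The zone difference in the change of Asns was 1.05 at 8 h (95% interval -0.88 to 2.98) and 1.82 at 24 h (-0.13 to 3.77).

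**Figure D3:**
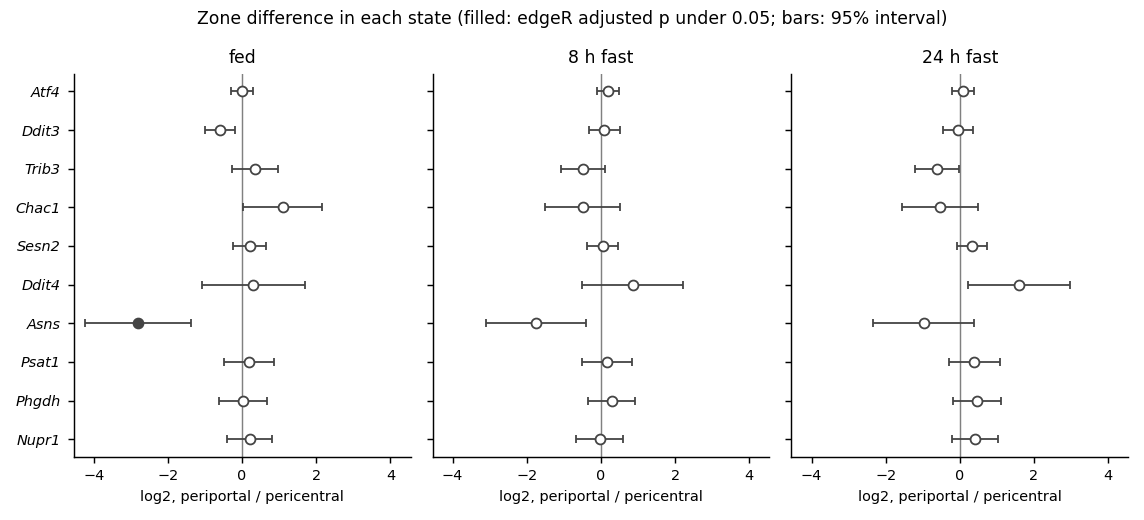
Log2 ratio of periportal to pericentral level of each of the 10 genes in fed, 8 h and 24 h mice, with 95% intervals as bars, and filled points where the edgeR adjusted p was under 0.05. The filled point is Asns in fed mice at -2.79, and its estimates at 8 h and 24 h are -1.75 and -0.98.

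Phgdh (ENSMUSG00000053398, chr3:98313170-98339990, minus strand) and Psat1 (ENSMUSG00000024640, chr19:15904678-15947337, minus strand) catalyse the first and second steps of serine synthesis from a glycolytic intermediate. Phgdh ranged from 1.96 to 5.54 CPM and Psat1 from 2.66 to 6.85 CPM over the 18 libraries. Both were highest in single libraries, Psat1 in periportal fed replicate 1 at 6.85 CPM (2.96 and 3.01 CPM in the others of its group) and Phgdh in periportal 8 h replicate 3 at 5.54 CPM. Group means of Psat1 ran from 3.06 ± 0.489 CPM in pericentral 24 h to 4.27 ± 2.23 CPM in periportal fed libraries (SD, n = 3 each), and those of Phgdh from 2.67 ± 0.276 in pericentral 24 h to 4.09 ± 1.30 CPM in periportal 8 h libraries (SD, n = 3 each). Changes from fed lay between -0.29 and -0.08 for Psat1 and between -0.33 and 0.27 for Phgdh. At 24 h the periportal libraries of Phgdh all lay above the pericentral ones, by 0.46 (SE 0.31, edgeR adjusted p 0.488, not called). Between these zones 22.1% of all genes did not overlap. At 24 h the 95% intervals of the change from fed were -0.97 to 0.39 (pericentral) and -0.76 to 0.59 (periportal) for Psat1. For Phgdh they were -0.97 to 0.32 (pericentral) and -0.53 to 0.76 (periportal).

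Nupr1 (ENSMUSG00000030717, chr7:126623249-126630861, minus strand) encodes a small stress-induced chromatin protein. It had 21 to 46.3 estimated counts and 0.934 to 1.91 CPM per library, the lowest level per exon length of the 10 genes in every group. Its groups overlapped in each comparison, with changes from fed of -0.08 and -0.32 in pericentral and -0.32 and -0.12 in periportal hepatocytes. The 95% intervals of these changes lay between -0.95 and 0.54. Zone differences in level of Nupr1 were 0.20, -0.04 and 0.41 in fed, 8 h and 24 h mice.

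Levels were compared between genes as CPM per kilobase of merged exons of the GENCODE M21 annotation. Atf4 led in fed libraries of both zones at 43.1 (pericentral) and 43.3 CPM per kilobase (periportal), followed by Ddit4 at 11.8 and 14.5. In periportal libraries of 24 h the order was the other way, with Ddit4 at 81.4 and Atf4 at 32.6 CPM per kilobase, and the libraries of the 2 genes did not overlap on this scale. In periportal 8 h libraries (Ddit4 at 47.3 and Atf4 at 34.5) and in fasted pericentral ones (Atf4 at 30.3 and 30.7, Ddit4 at 26.1 and 26.9) the spread did not separate them. The other 8 genes lay between 0.489 (Nupr1, pericentral 24 h) and 5.86 CPM per kilobase (Ddit3, pericentral fed).

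The genes around ATF4 were read from lists fixed for this description but chosen with earlier results of these data known. Their counts and medians describe these genes and are not independent support. In pericentral hepatocytes edgeR called 7.27% of all genes higher and 6.57% lower at 8 h, and 10.8% and 11.1% at 24 h. In periportal ones these shares were 7.56% and 6.85% at 8 h, and 9.59% and 10% at 24 h. Of 7 genes for eIF2, its kinases and its phosphatase subunits, 2 rose and 2 fell at 8 h and 2 rose and 4 fell at 24 h in pericentral hepatocytes. In periportal ones 1 rose and 3 fell at 8 h and 2 rose and 3 fell at 24 h (list medians at 24 h -0.33 and -0.39, beside 0.009 and -0.002 over all genes). The risers were Eif2ak1, the heme-regulated kinase HRI, by 0.52 and 0.37 at 24 h (pericentral and periportal, edgeR adjusted p 0.000883 and 0.0107), and Ppp1r15a, the stress-induced subunit GADD34 that reverses eIF2 phosphorylation. Ppp1r15a had 5.34 ± 1.18 CPM in fed and 10.8 ± 3.33 CPM in 24 h pericentral libraries (SD, n = 3 each) and rose by 1.01 (edgeR adjusted p 0.00805). In periportal libraries Ppp1r15a rose by 0.84 at 24 h (edgeR adjusted p 0.0239). Eif2s1, the phosphorylated subunit of eIF2 itself, fell by 0.37 and 0.38 at 24 h (edgeR adjusted p 0.00698 and 0.00658). Ppp1r15b, the constitutive phosphatase subunit, fell by 0.33 and 0.39 (edgeR adjusted p 0.0203 and 0.00799). Eif2ak3, which encodes PERK, fell by 0.68 at 24 h in pericentral hepatocytes (edgeR adjusted p 0.0163), and Eif2ak4, which encodes GCN2, was not called in any fasting comparison.

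Among 7 bZIP partners and relatives of ATF4, 2 rose at 24 h in pericentral and 2 rose and 1 fell in periportal hepatocytes (medians 0.04 and 0.10). The shares over all genes were 10.8% higher in pericentral, and 9.59% higher and 10% lower in periportal hepatocytes. Cebpb, a C/EBP partner of ATF4, rose by 1.21 and 0.89 at 24 h (edgeR adjusted p 0.00156 and 0.0121), and Creb3l3, a hepatocyte bZIP factor, by 0.41 and 0.57 (edgeR adjusted p 0.0198 and 0.00295). Atf5, whose message is also controlled through eIF2, averaged 155.6 ± 45.1 CPM in fed and 271.9 ± 49.8 CPM in 8 h pericentral libraries (SD, n = 3 each). At 8 h Atf5 rose by 0.81 in pericentral and 1.0 in periportal hepatocytes (edgeR adjusted p 0.0332 and 0.0103), and at 24 h it averaged 159.9 and 190.7 CPM. Cebpg fell by 0.49 at 8 h in pericentral and by 0.42 at 24 h in periportal hepatocytes (edgeR adjusted p 0.00926 and 0.0175).

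Cytosolic aminoacyl-tRNA synthetases load amino acids onto tRNA. Of 12 such genes, 2 fell at 8 h and 6 at 24 h in pericentral, and 3 and 6 in periportal hepatocytes, and the others were not called. The list median at 24 h was -0.49 in pericentral and -0.47 in periportal hepatocytes, where 11.1% and 10% of all genes were called lower. Pericentral Wars fell from 17.8 ± 2.40 to 8.83 ± 0.716 CPM over 24 h and periportal Wars from 21.1 ± 1.24 to 9.86 ± 0.605 CPM (SD, n = 3 each), by 1.01 and 1.10 on the log2 scale (edgeR adjusted p 0.000308 and 0.000194). Aars fell by 0.68 and 0.64 at 24 h (edgeR adjusted p 0.000626 and 0.00118) and was also lower in periportal than in pericentral hepatocytes in each state, with differences of -0.54, -0.70 and -0.50 (edgeR adjusted p 0.00662, 0.00126 and 0.0185). Iars, Tars and Yars also fell at 24 h in both zones, Cars in pericentral hepatocytes and Lars in periportal ones.

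Of the 7 amino acid transporters, Slc7a11 was too low to be tested. Slc38a2, a carrier of neutral amino acids that is induced when they are scarce, rose at 24 h in both zones by 1.15 and 1.12 (edgeR adjusted p 0.00442 and 0.00626). Slc1a4 and Slc7a5 were higher in pericentral hepatocytes in fed mice, as was Asns. Slc1a4, a carrier of neutral amino acids such as serine, had 10.8, 6.18 and 9.27 CPM in pericentral and 1.32, 1.36 and 0.845 CPM in periportal fed libraries, a difference of -2.90 (SE 0.40, edgeR adjusted p 0.000204), and -2.69 after 8 h (edgeR adjusted p 0.000754). Slc7a5, a carrier of large neutral amino acids such as leucine, had 5.43, 4.96 and 5.72 CPM against 2.72, 1.76 and 1.58 CPM, a difference of -1.41 (SE 0.28, edgeR adjusted p 0.00457), and -1.39 after 8 h (edgeR adjusted p 0.0065). At 24 h both had fallen in pericentral hepatocytes, Slc1a4 by 1.90 and Slc7a5 by 1.43 (edgeR adjusted p 0.00187 and 0.00191), and in periportal ones neither was called. Slc1a4 was at 0.919 CPM in pericentral 24 h replicate 2, the library with low Glul, against 3.60 and 2.52 CPM in the other pericentral 24 h libraries.

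Of 8 enzymes of serine, proline and one-carbon metabolism, 2 fell at 24 h in pericentral and 1 in periportal hepatocytes. The others were not called (medians 0.01 and -0.045), and 11.1% and 10% of all genes were called lower. Psph, which completes serine synthesis after Phgdh and Psat1, fell by 0.34 and 0.33 (edgeR adjusted p 0.0213 and 0.0287). Mthfd2, a mitochondrial folate enzyme, fell by 1.24 in pericentral hepatocytes (edgeR adjusted p 0.0431). Its level was low, and the fed (0.945 to 2.04 CPM) and 24 h pericentral libraries (0.391 to 1.24 CPM) overlapped. Mthfd1l, another mitochondrial folate enzyme, was higher in periportal than in pericentral fed libraries by 1.90 (edgeR adjusted p 0.00019). Periportal and pericentral libraries of Mthfd1l had 1.96 to 2.61 and 1.12 to 1.47 CPM at 8 h. At 24 h they had 7.38 to 8.85 and 2.77 to 3.68 CPM. In periportal hepatocytes Mthfd1l fell by 1.79 at 8 h (edgeR adjusted p 0.000248) but not at 24 h. Its periportal means were 7.58 CPM in fed, 2.18 CPM in 8 h and 8.29 CPM in 24 h libraries. Of 5 secreted and growth-control targets tested (Stc2 was too low), Eif4ebp1, a translation inhibitor, rose by 0.52 and 0.56 at 24 h (edgeR adjusted p 0.00341 and 0.00221). Vegfa fell by 0.52 and 0.45 at 24 h (edgeR adjusted p 0.0166 and 0.0402), and the hormones Fgf21 and Gdf15 were not called in any fasting comparison.

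**Figure D4:**
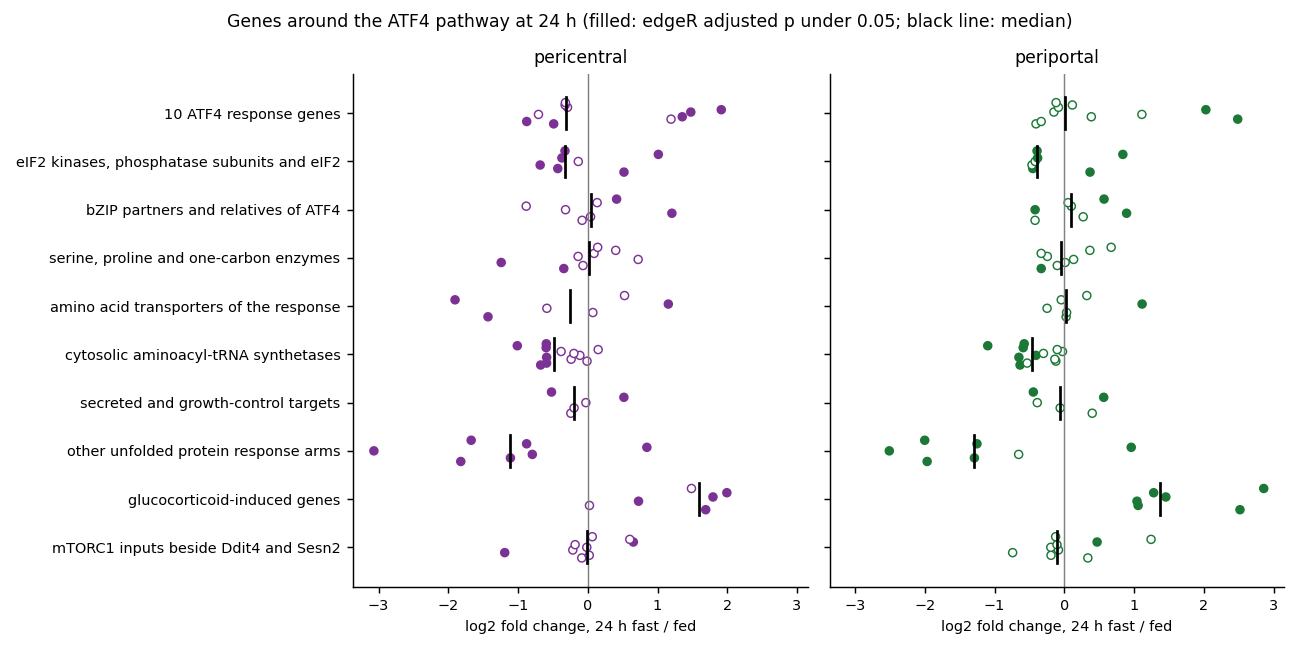
Log2 fold change from fed to 24 h of each gene of the 10 and of 9 lists around them, with 1 point per gene, filled where the edgeR adjusted p was under 0.05, and the list median as a black line. The synthetases and the other unfolded protein response genes lie mostly left of 0 and the glucocorticoid-induced genes right of 0 in both zones.

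Levels of 2 further lists moved beside these genes. Of all genes, 10.8% were called higher and 11.1% lower at 24 h in pericentral and 9.59% and 10% in periportal hepatocytes. Of 7 genes from the other arms of the unfolded protein response, 1 rose and 6 fell at 24 h in pericentral and 1 rose and 5 fell in periportal hepatocytes (medians -1.11 and -1.29). Hspa5, the main chaperone of the endoplasmic reticulum, fell by 1.82 and 1.97 (edgeR adjusted p 8.92e-06 and 7.06e-06), and Herpud1 rose by 0.85 and 0.96 (edgeR adjusted p 0.00293 and 0.00138). Of 6 glucocorticoid-induced genes, at 24 h 4 rose in pericentral and 6 in periportal cells (medians 1.59 and 1.37). Fkbp5 rose by 1.69 and 2.52 (edgeR adjusted p 0.021 and 0.00271) and Klf9 by 1.80 and 1.46 (edgeR adjusted p 8.01e-07 and 6.63e-06). Their part in the changes of Ddit4, Sesn2 or Trib3 was not tested.

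The genes most like each of the 10 in pattern were taken by Pearson correlation of log2 CPM over the 18 libraries, among 8005 genes with a mean of at least 5 CPM. These libraries share 6 groups, so the values describe likeness and carry no test. Sesn2 was most like Mt1, a metallothionein (r = 0.963, rho = 0.93), and Pnpla2, the first lipase of triglyceride breakdown (r = 0.958, rho = 0.92). Ddit3 was most like Zranb2 and Cacybp (r = 0.911 and 0.902, rho = 0.92 and 0.895), and Atf4 like Rbfox2 and Nktr (r = 0.885 and 0.875, rho = 0.905 and 0.901). Trib3 was most like Mafk and Rab17 (r = 0.891 and 0.87, rho = 0.835 and 0.87), and Ddit4 like Eif4ebp3, a translation inhibitor, and Serpina3c (r = 0.879 and 0.859, rho = 0.905 and 0.818). Phgdh came closest to Axl and Pkm (r = 0.864 and 0.838, rho = 0.86 and 0.822), Asns to Casp8 and Aspscr1 (r = 0.839 and 0.83, rho = 0.81 for both), and Psat1 to Timp2 and Htra1 (r = 0.818 and 0.808, rho = 0.664 and 0.67). The values were lower for Chac1 (Dctn1 at r = 0.777 and Zbtb22 at 0.776, rho = 0.771 and 0.792) and Nupr1 (Krt14 at r = 0.688 and Bop1 at 0.652, rho = 0.575 and 0.701).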

How the data were processed

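Total RNA of 18 hepatocyte libraries was sequenced after NEBNext Ultra library preparation, per the labels' protocols. Estimated counts of every library were deposited by the authors in 1 table. The submitters' processing notes name kallisto 0.46.0 and the build mm10, and the use of strand is not given in the sources used here. Symbols came from a table of gene names (27566 of 28030 genes matched), and coordinates from GENCODE M21 (GRCm38, the same assembly as mm10). The estimated counts were rounded to whole numbers and tested with edgeR 4.0.16 in R 4.3.3 (robust quasi-likelihood F test, TMM, filterByExpr, which 12477 genes passed). A fit of all 18 libraries had 1 coefficient for each of the 6 groups and gave 13 contrasts, with adjusted p-values over all genes tested. The SE is the log2 fold change divided by the square root of F. Alternatives were DESeq2 size factors, 2 other filters, the contrast's groups alone, blocks by replicate number, a scaling that left out the 20 most abundant genes, DESeq2 1.42.0, limma-voom (limma 3.58.1) and each library left out. The fit was tested on simulated data. The main fit did not pair libraries. Besides the blocks by replicate number, an added fit took same-numbered libraries as pairs in the zone comparison at 24 h alone. There the deviations of the 3 same-numbered pairs from their group means correlated at 0.121 to 0.165. This was a hint from the data and not from the labels. In the other group pairs the same-numbered correlations ran from -0.12 to 0.206 and at least 1 pair lay under 0.1. Named were the 10 genes, list members called in any contrast, and the 2 genes most like each of the 10 (symbols of predicted genes left out). Eif2ak4, Gdf15 and Sesn1 are named beside them, chosen after their values were seen. The members and lists were chosen with earlier results of these data known. Of the lists written, only those of immediate early genes and mTORC1 inputs are described outside the report.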

Additional observations from a re-analysis of the deposited data

How the results depend on the processing

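Of 16 changes and zone differences called among the 10 genes, 9 were called under all 26 alternatives and 0 were reversed. The number of the 10 genes called in fed mice between zones was 1, and 2 when only these groups were fitted, by DESeq2 and by limma-voom. The number called in periportal hepatocytes at 8 h was 1, and 2 with a filter at a mean of 1 CPM, 2 when only these groups were fitted and 4 by DESeq2. Leaving out 1 library at a time gave 0 to 2 genes between zones in fed mice, 0 to 1 at 8 h and 1 to 2 averaged over the states. It gave 3 to 6 in pericentral hepatocytes at 24 h against fed, where 3 were left without pericentral 24 h replicate 1 or 2, 1 to 3 in periportal ones at 8 h, 1 to 2 at 24 h, and 0 to 1 between 24 h and 8 h. The smaller numbers of libraries in these fits are part of their construction, and otherwise the cause was not tested. With the replicate block, 5 genes were called in pericentral hepatocytes at 8 h and at 24 h, 1 between zones in fed mice and 0 at 24 h, and the block changed no call of the 10 genes. A block of the 24 h libraries alone, added after the correlations of same-numbered libraries were seen, also gave 0 genes between zones at 24 h. Chac1 and Nupr1 rest on 20 to 165 and on 21 to 46.3 estimated counts per library.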

Other observations

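Of 9 further inputs to mTORC1 tested beside Sesn2 and Ddit4 (Sesn3 was too low), 1 rose and 1 fell at 24 h in pericentral hepatocytes. In periportal ones 1 rose (medians -0.01 and -0.11). The shares over all genes were 10.8% higher and 11.1% lower in pericentral, and 9.59% higher in periportal hepatocytes. Tsc1, a subunit of the complex through which REDD1 acts, rose by 0.65 and 0.47 (edgeR adjusted p 0.000931 and 0.0105). Castor2, a relative of the arginine sensor of mTORC1, fell by 1.19 in pericentral hepatocytes (edgeR adjusted p 0.00913) and was lower in periportal than in pericentral 8 h libraries, with a difference of -1.17 (edgeR adjusted p 0.022). Sesn1, the closest relative of Sesn2 in the list, was at 8.39 to 10.6 CPM as group means and was not called in any contrast. Of 8 immediate early and heat shock genes tested, 1 rose at 8 h in each zone, beside 7.27% and 7.56% of all genes. These were Junb in pericentral (1.37, edgeR adjusted p 0.0378) and Egr1 in periportal hepatocytes (2.26, edgeR adjusted p 0.0452).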
